A study of Mus musculus with 18 samples.

Results

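Ccl17, Ccl22, Ccl5, Cxcl16 and Ccl24 are the 5 chemokine genes described here, out of 19752 genes on the arrays. They were chosen by name as dendritic cell chemokines that draw T cells or eosinophils, with earlier results of these data known. Each is read by 1 probe set that maps to no other gene symbol. RNA from mouse myeloid cells was measured on 18 single-colour arrays, and values are log2 signal, on which a difference of 1 is a doubling. The study asked how RAF, MEK and ERK signalling bears on dendritic cell migration in Langerhans cell histiocytosis, a disease in which such cells collect in lesions.

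Every mouse carried the floxed allele BRAFV600E(CA-flox), which makes an active BRAF kinase once Cre has acted on it. The 9 BRAF arrays came from mice positive for CD11c-Cre, which is driven by the promoter of the integrin CD11c (Itgax) and so acts in dendritic cells and in other cells that make CD11c, some macrophages among them. The 9 WT arrays came from Cre-negative littermates that hold the same allele in its silent form. The first of 4 populations, called BMDC, was dendritic cells grown from the marrow of mice aged 5 weeks, FACS sorted for live cells with both CD11c and CD11b, on 3 arrays per genotype. The others came from mice aged 14 weeks, on 2 arrays per genotype each: CD11b+ cells of liver, CD11b+ cells of lung, and CD103+ cells of lung. No treatment was given. Whether replicates are separate animals or cultures is not stated in the labels, so the p-values rest on how far these arrays spread, and that spread may be technical.

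Chemokines are small secreted proteins that guide cells carrying the matching receptor. Ccl17 and Ccl22 both bind CCR4, found on type 2 helper and regulatory T cells, and are products of mature dendritic cells. Ccl5 draws T cells, monocytes and eosinophils, and its receptors include CCR1 and CCR3. Cxcl16 is made as a membrane-bound protein that ADAM proteases release, and it binds CXCR6 on T cells and natural killer T cells. Ccl24, or eotaxin-2, binds CCR3 on eosinophils and is largely a product of alternatively activated macrophages.

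Ccl17 and Ccl22 lie near each other on mouse chromosome 8. In the RefSeq gene order the stretch from Ccl22 to Ccl17 holds 5 genes, of which the protein-coding member between them is Cx3cl1, the chemokine fractalkine. Ccl17 and Ccl22 both fell in BRAF arrays in the mean over populations, as did Ccl5 and Cxcl16. Promoter sequences in the RefSeq table used here were matched for 2 of the 5 members, this pair, and are shown as the 250 bases before the RefSeq start on the + strand of GRCm38.p6. The Ccl22 window is chr8:94745434-94745683 and the Ccl17 window is chr8:94810203-94810452. The Ccl17 window lies inside the annotated span of its gene, which also has a transcript that starts further upstream. Capitals mark motif matches.

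Ccl17: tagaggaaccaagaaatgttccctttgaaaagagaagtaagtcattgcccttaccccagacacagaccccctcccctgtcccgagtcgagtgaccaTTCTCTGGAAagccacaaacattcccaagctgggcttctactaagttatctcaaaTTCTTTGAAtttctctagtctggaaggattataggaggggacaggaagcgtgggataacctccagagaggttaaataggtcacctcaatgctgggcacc
Ccl22: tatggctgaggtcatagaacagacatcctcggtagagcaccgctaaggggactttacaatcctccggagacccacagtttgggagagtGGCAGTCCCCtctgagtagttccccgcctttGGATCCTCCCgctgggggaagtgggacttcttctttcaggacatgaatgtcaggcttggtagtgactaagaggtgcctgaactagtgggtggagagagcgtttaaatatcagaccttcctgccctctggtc

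In the Ccl17 window the capitals are TTCTCTGGAA, 154 to 145 bases before the start, and TTCTTTGAA, 99 to 91 bases before it. They match the STAT pattern of TTC and GAA with 4 bases or 3 bases between, which 5.85% and 7.02% of the 32851 promoter windows hold. In the Ccl22 window the capitals are GGCAGTCCCC, 162 to 153 bases before the start, and GGATCCTCCC, 131 to 122 bases before it. Both are matches on the opposite strand to the loose NF-kB pattern of GGG and CC with 5 bases between, which 45.8% of windows hold. The stricter NF-kB pattern GGGANTTCC (1.43% of windows), the AP-1 pattern TGANTCA (6.75%) and the interferon response pattern of GAAA repeated after 2 bases (2.98%) had no match in either window. Both strands were searched. These matches describe the letters only. The promoters of the other members were not analysed here.

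Array medians ran from 93.7 to 113.2 signal units. BRAF BMDC replicate 2 and WT liver replicate 3 had a narrow interquartile range of log2 signal, 1.9 and 1.92, against 2.41 to 2.99 on the other 16 arrays. Itgax, which encodes CD11c, read 10.66 to 12.18 log2 on all 18 arrays. Itgae, which encodes CD103, read 10.6 to 12.18 in lung CD103+ cells and at most 7.65 elsewhere. The mean log2 signal of 7 conventional dendritic cell markers was 9.97 to 11.65 in the organ cells and 8.53 to 9.51 in BMDC. That of 8 macrophage markers was 10.3 to 11.53 in the CD11b+ cells of both organs. In bulk samples, fewer cells of a type and less RNA per cell cannot be told apart. Ccl17, Ccl22, Ccl5 and Cxcl16 lay above the filter on low values (each array's 30th percentile) on 18 of 18 arrays, and Ccl24 on 11 of 18.

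With the genotype effect averaged over the 4 populations, 4 of the 5 chemokines were lower in BRAF arrays. Ccl5 was 3.31-fold lower (log2 -1.73 ± 0.19, standard error here and for each difference below, adjusted p = 0.000287). Ccl22 was 4.17-fold lower (-2.06 ± 0.33, adjusted p = 0.00793) and Ccl17 4.05-fold lower (-2.02 ± 0.34, adjusted p = 0.0108). Cxcl16 was 1.93-fold lower (-0.95 ± 0.18, adjusted p = 0.019), and Ccl24, at -0.59 ± 0.14, did not pass (adjusted p = 0.0662). Adjusted p-values are limma's, by Benjamini-Hochberg across 15365 tested genes, with calls made below 0.05. In this comparison 0.989% of all genes were called in either direction and 0.501% were called lower. The calls of Ccl17, Ccl22 and Ccl5 held without each array in turn. That of Cxcl16 was lost without WT liver replicate 1 (adjusted p = 0.0621) or WT lung CD11b+ replicate 1 (adjusted p = 0.0638), and Ccl24 passed without BRAF BMDC replicate 2 (adjusted p = 0.0315) or BRAF lung CD103+ replicate 1 (adjusted p = 0.0261).

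**Figure D1:**
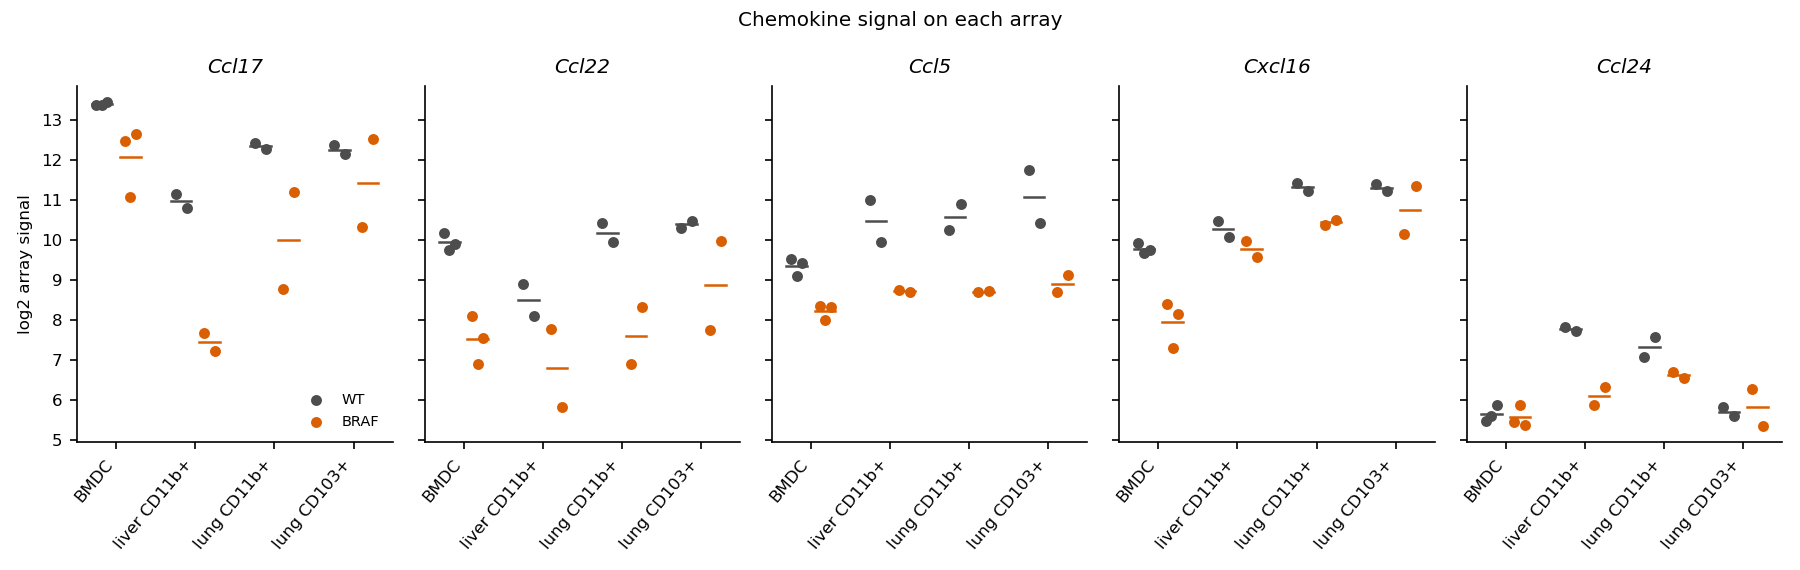
Log2 signal of the 5 chemokine genes (y axis, 1 panel per gene) on the 18 arrays, by population (x axis); points are arrays, grey for WT and orange for BRAF, and short lines are group means. In BMDC, Ccl17 read 13.36 to 13.44 on the WT arrays and 11.08 to 12.65 on the BRAF arrays, and in lung its 2 BRAF arrays lie far apart.

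Within single populations most differences did not pass the threshold over all genes. Of the 5 chemokines, 1 was called lower in BMDC (Cxcl16), where 0.189% of all genes were, and 1 in liver (Ccl24), where 0.0716% were. Calls in either direction covered 0.521% and 0.215% of all genes in these comparisons. In the lung populations limma called 0 of 5. Of all genes it called 0.338% in CD11b+ cells, 0.267% being lower, and 0.0846% in CD103+ cells, 0.039% being lower. The unadjusted p was under 0.05 for 4 of 5 members in BMDC and 4 of 5 in liver, where 6.65% and 14.1% of all genes had such a p. It was so for 5 of 5 in lung CD11b+ cells (6.71% of all genes) and for 2 of 5, Ccl22 and Ccl5, in the CD103+ cells of lung (4.26%). The members' median difference was -1.33 for BMDC and -1.71 for liver, beside 0 and 0.08 for all genes. For the lung populations it was -1.86 (CD11b+) and -0.85 (CD103+), beside 0 and -0.08.

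Every BRAF array lay below every WT array for 4 of 5 members in BMDC and 5 of 5 in liver, a pattern that 9.08% and 15.8% of all genes showed. In lung it held for 5 of 5 members in CD11b+ cells and 2 of 5 in CD103+ cells, against 24.8% and 19.3% of all genes. Ccl22 and Ccl5 showed it in all 4 populations, as did 32 of the 15365 genes (0.208%). Ccl17 and Cxcl16 showed it in 3 populations and Ccl24 in 2.

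**Figure D2:**
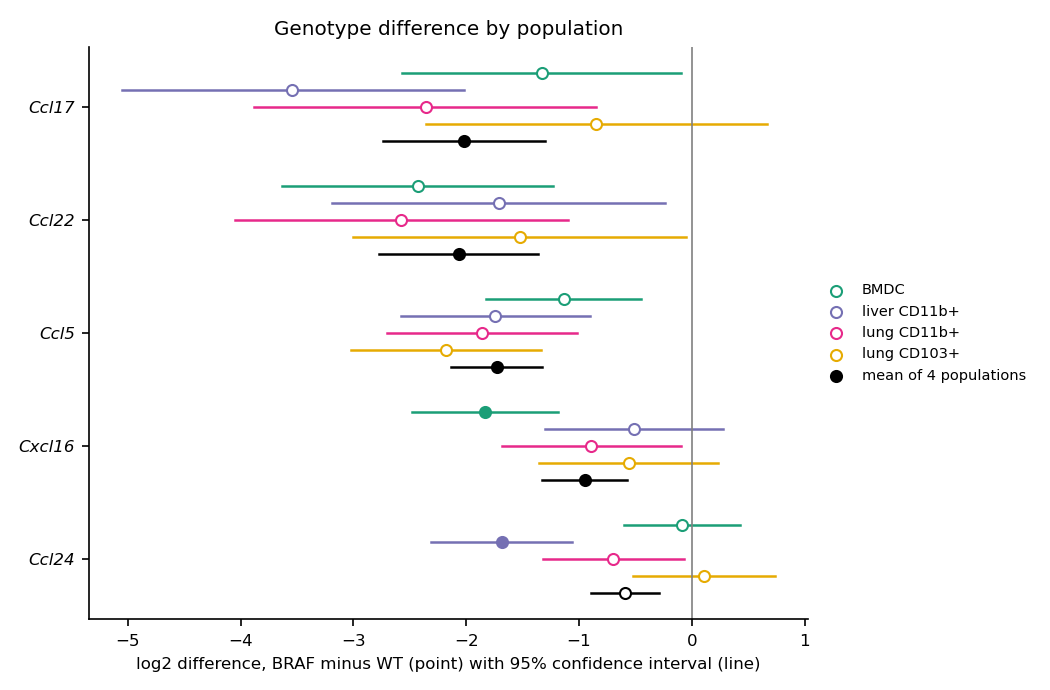
Log2 difference BRAF minus WT (x axis) of each chemokine gene (y axis) in the 4 populations and in their mean, with 95% confidence intervals as lines; filled points had an adjusted p under 0.05. The points lie left of 0 except Ccl24 in lung CD103+ cells at 0.11, and the filled points are Cxcl16 in BMDC, Ccl24 in liver, and 4 of the 5 genes in the mean.

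Ccl17 had its highest WT level in BMDC. The 3 WT BMDC arrays read 13.36, 13.38 and 13.44 log2, and the BRAF arrays read 12.48, 11.08 and 12.65 (replicates 1 to 3). The genotypes did not overlap, but BRAF replicate 2, with the narrow range of values, lay well below the other BRAF arrays, and the difference of -1.33 ± 0.58 did not pass (adjusted p = 0.71). In liver the WT arrays read 11.15 and 10.8 and the BRAF arrays 7.67 and 7.21, an 11.6-fold lower level. This was the widest gap of any member in any population, at -3.54 ± 0.71 with a 95% interval of -5.05 to -2.02, and it lay just past the threshold (adjusted p = 0.0599). Leaving out 1 of the 4 liver arrays at a time gave differences of -3.77 to -3.3.

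In lung CD11b+ cells, Ccl17 read 12.41 and 12.28 on the WT arrays, against 8.76 on BRAF replicate 1 and 11.2 on BRAF replicate 2. Both BRAF arrays lay below WT, and the difference was -2.36 ± 0.71 (adjusted p = 0.252). Without BRAF replicate 2 it was -3.58 and passed (adjusted p = 0.033), and without BRAF replicate 1 it was -1.14. In lung CD103+ cells the WT arrays read 12.37 and 12.14 and the BRAF arrays 10.31 and 12.51. Here the genotypes overlapped, since BRAF replicate 2 was above both WT arrays. The difference of -0.85 ± 0.71 did not pass (adjusted p = 1), and without BRAF replicate 1 it turned to 0.25.

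Ccl22, the other CCR4 ligand, was lower on every BRAF array than on any WT array of the same population. In BMDC the WT arrays read 10.16, 9.75 and 9.89 and the BRAF arrays 8.08, 6.88 and 7.55. The level was 5.39-fold lower, at -2.43 ± 0.56 (adjusted p = 0.0872). In liver the WT arrays read 8.9 and 8.1 and the BRAF arrays 7.77 and 5.81. The gap between the lowest WT and the highest BRAF array was small there, and the difference was -1.71 ± 0.69 (adjusted p = 0.3). Without BRAF liver replicate 3 it was -0.73, and without BRAF liver replicate 2 it was -2.7 (adjusted p = 0.798 and 0.0773).

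In lung CD11b+ cells, Ccl22 read 10.42 and 9.93 on WT and 6.88 and 8.31 on BRAF arrays. The difference was -2.58 ± 0.69, or 5.98-fold lower (adjusted p = 0.179). In lung CD103+ cells it read 10.29 and 10.47 on WT and 7.75 and 9.97 on BRAF arrays, with a difference of -1.52 ± 0.69 (adjusted p = 1). Again BRAF replicate 1 was far below and replicate 2 close to the WT arrays. Without BRAF replicate 1 the difference was -0.41, and without BRAF replicate 2 it was -2.63 (adjusted p = 1 and 0.157).

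The lung BRAF arrays of number 1 and number 2 thus differed for both CCR4 ligands in both lung populations. Replicate 2 was above replicate 1 by 2.44 log2 for Ccl17 and 1.43 for Ccl22 in CD11b+ cells, and by 2.2 and 2.23 in CD103+ cells. For Ccl5 these gaps were 0.04 and 0.43, and for Cxcl16 0.15 and 1.22. Ccr7, the receptor that takes mature dendritic cells to lymph nodes, had gaps of 0.26 and 0.89. The arrays also differed in other RNA, not the same way in both populations. Alb, the hepatocyte gene for albumin, read 10.98 on replicate 1 and 6.57 on replicate 2 of the CD103+ cells, but 8.23 and 9.64 in the CD11b+ cells. Cd5l, a macrophage gene, read 10.33 and 5.2 in the CD11b+ cells and 7.24 and 6.56 in the CD103+ cells. In the CD103+ cells Itgae read 10.6 and 11.84, and the macrophage gene Adgre1 10.32 and 9.42.

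In lung CD11b+ cells the means of conventional and type 2 dendritic cell markers were lower on BRAF than on WT arrays. Of either list limma called 0 genes there, and 24.8% of all genes had every BRAF array below every WT array. The 7 conventional dendritic cell markers averaged 10.92 and 10.95 on the WT arrays, against 9.97 on BRAF replicate 1, the array lowest in Ccl17 and Ccl22, and 10.61 on BRAF replicate 2. A list of 7 type 2 dendritic cell markers averaged 10.53 and 10.48 on WT, against 9.49 and 10.13 on BRAF replicates 1 and 2. The 8 type 1 dendritic cell markers overlapped, at 7.66 and 8.06 on WT and 8.02 and 8.01 on BRAF arrays. In lung CD103+ cells the 8 macrophage markers averaged 7.17 and 8.49 on WT and 9.05 and 10.4 on BRAF arrays. There 8 of 8 were higher in the mean of the BRAF arrays, while 65% of all genes were lower. Of the 8, limma called 0, with an unadjusted p under 0.05 for 7 (4.26% of all genes). Their median difference in lung CD103+ cells was 2.01, beside -0.08 for all genes. There 6 lung epithelium markers averaged 7.6 and 8.77 on WT and 8.52 and 9.36 on BRAF arrays. The part of any of these in the chemokine differences of either lung population was not tested.

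Without both BRAF lung arrays numbered 1, a setting chosen after the data were seen, the mean effect of Ccl17 and of Ccl22 kept its call. Cxcl16 then lost its call, at -0.78 (adjusted p = 0.0864), and Ccl24 gained it, at -0.72 (adjusted p = 0.0458). Without both numbered 2, Ccl17 and Ccl22 were called in lung CD11b+ cells, at -3.58 (adjusted p = 0.00389) and -3.29 (adjusted p = 0.0341).

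Ccl5 read lower on each BRAF array than on any WT array of its population. In BMDC the WT arrays read 9.52, 9.1 and 9.41 and the BRAF arrays 8.33, 7.98 and 8.32, with a difference of -1.13 ± 0.32 (adjusted p = 0.244). In liver the WT arrays read 10.99 and 9.93 and the BRAF arrays 8.75 and 8.7, with a difference of -1.74 ± 0.39 (adjusted p = 0.0965). The BRAF arrays lay close together and the WT arrays were spread. The lower WT value was on WT liver replicate 3, an array with a narrow range of values. By rank, Ccl5 lay above 98.4% and 96.4% of genes on WT liver replicates 1 and 3. On BRAF liver replicates 2 and 3 it lay above 85.2% and 80.8%.

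In lung CD11b+ cells, Ccl5 read 10.24 and 10.89 on WT and 8.68 and 8.72 on BRAF arrays, a difference of -1.86 ± 0.39 (adjusted p = 0.0619). In lung CD103+ cells it read 11.74 and 10.42 on WT and 8.68 and 9.11 on BRAF arrays, 4.53-fold lower at -2.18 ± 0.39 (adjusted p = 0.0573). The 6 BRAF organ arrays lay between 8.68 and 9.11, while the 6 WT organ arrays spread from 9.93 to 11.74. The value of 9.93 was on WT liver replicate 3, an array with a narrow range of values.

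Ccl5 is also made by T and NK cells, whose markers are given beside it. In lung CD103+ cells the mean of 9 NK cell markers was 7.82 on WT replicate 1, the array with the highest Ccl5, and 6.15 on WT replicate 3, against 6.17 and 6.09 on the BRAF arrays. On WT replicate 1, 7 of the 9 lay above the filter level, and 10 T cell markers averaged 7.63, against 5.9 on WT replicate 3 and 6.77 and 6.1 on the BRAF arrays. Without WT replicate 1 the Ccl5 difference there was -1.52, and without WT replicate 3 it was -2.84. In liver the NK markers averaged 6.74 to 6.78 on WT and 5.91 to 6.41 on BRAF arrays, and the T cell markers 6.71 to 6.72 and 5.98 to 6.16. In lung CD11b+ cells the NK markers averaged 6.06 to 6.18 on WT and 5.94 to 6.09 on BRAF arrays, and the T cell markers 6.24 to 6.44 and 5.98 to 6.48, so both overlapped. In BMDC no BRAF array had lower NK markers than WT (5.16 to 5.2 on WT, 5.22 to 5.92 on BRAF). The T cell markers averaged 5.77 to 5.81 on WT and 5.73 to 6.64 on BRAF arrays. The highest values, 5.92 and 6.64, were both on BRAF BMDC replicate 2, an array with a narrow range of values. BRAF BMDC replicates 1 and 3 read 5.34 and 5.22 for the NK markers and 5.89 and 5.73 for the T cell markers. The part of these cells in the organ differences was not tested.

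**Figure D3:**
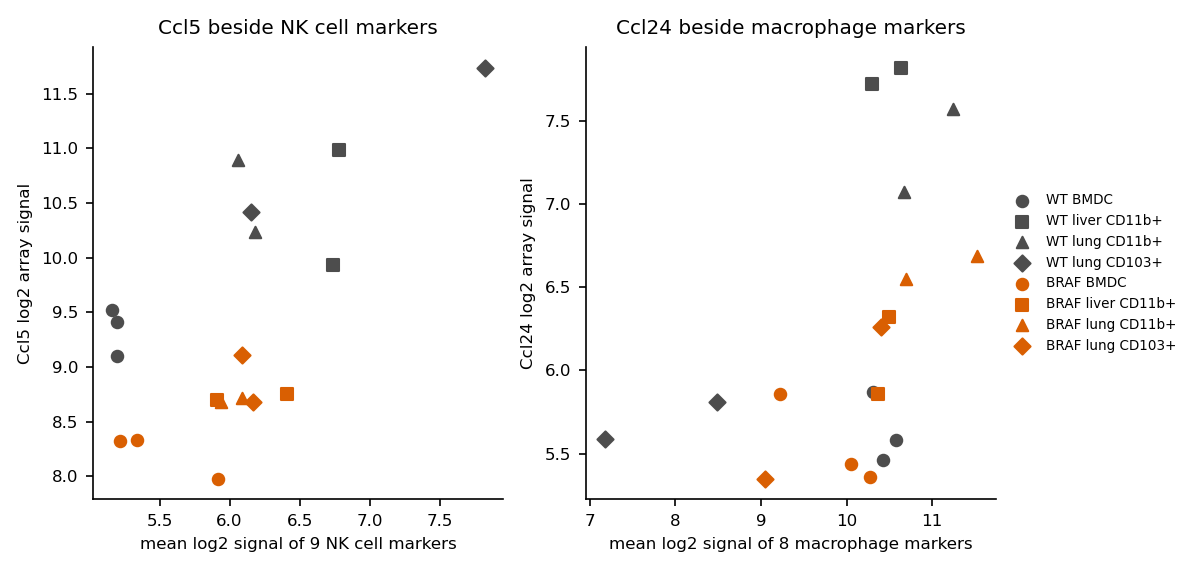
Log2 signal of Ccl5 against the mean log2 signal of 9 NK cell markers (left) and of Ccl24 against that of 8 macrophage markers (right); each point is 1 of the 18 arrays, with colour for genotype and shape for population. WT lung CD103+ replicate 1 has the highest value on both axes of the left panel, at 7.82 and 11.74, and on the right the WT and BRAF liver arrays lie apart in Ccl24 at macrophage values of 10.3 to 10.64 and 10.37 to 10.5.

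Cxcl16, the membrane-bound CXCR6 ligand, was called in BMDC. The WT arrays read 9.91, 9.67 and 9.75 and the BRAF arrays 8.4, 7.28 and 8.15. The genotypes were well apart and the level was 3.57-fold lower (-1.83 ± 0.3, adjusted p = 0.0108). The call was lost without each of the 3 WT BMDC arrays (adjusted p = 0.0542 to 0.0799).

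The organ populations had smaller Cxcl16 differences. In liver it read 10.47 and 10.07 on WT and 9.97 and 9.56 on BRAF arrays, with a difference of -0.51 ± 0.37 (adjusted p = 0.518). In lung CD11b+ cells it read 11.41 and 11.23 on WT and 10.36 and 10.5 on BRAF arrays, a difference of -0.89 ± 0.37 (adjusted p = 0.607). In lung CD103+ cells the WT arrays read 11.4 and 11.21 and the BRAF arrays 10.13 and 11.35, so the genotypes overlapped (-0.56 ± 0.37, adjusted p = 1). Without BRAF replicate 1 this last value was 0.05. The difference of the BMDC effect from the liver effect was -1.33 ± 0.48 and did not pass (adjusted p = 0.226), in a comparison that called 0.137% of all genes.

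Ccl24, the eosinophil chemokine, was called in liver. The WT arrays read 7.82 and 7.72 and the BRAF arrays 5.86 and 6.32, a 3.21-fold lower level (-1.68 ± 0.29, adjusted p = 0.0377). The WT values lay close together and far above the BRAF values. Leaving out WT replicate 1, WT replicate 3 or BRAF replicate 3 ended the call (adjusted p = 0.0581, 0.133 and 0.059). In the same comparison a list of 7 mast cell and basophil markers averaged 5.72 to 5.82 on WT and 5.1 to 5.17 on BRAF arrays, while the 8 macrophage markers averaged 10.3 to 10.64 and 10.37 to 10.5. The 5 eosinophil markers averaged 5.64 to 6.4 over all groups. The part of mast cells or basophils in the Ccl24 difference was not tested.

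In lung CD11b+ cells, Ccl24 read 7.07 and 7.57 on WT and 6.69 and 6.55 on BRAF arrays (-0.7 ± 0.29, adjusted p = 0.619). In BMDC it read 5.46, 5.58 and 5.87 on WT and 5.44, 5.86 and 5.36 on BRAF arrays, and in lung CD103+ cells 5.81 and 5.59 on WT and 6.26 and 5.35 on BRAF arrays. These values lie around the filter level (3 of these 10 arrays were above it) and the genotypes overlapped, at -0.09 ± 0.24 (adjusted p = 0.885) and 0.11 ± 0.29 (adjusted p = 1). In liver and lung CD11b+ cells it was above the filter level on 8 of 8 arrays.

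Whether the genotype effect differed among populations was tested by an F test over the 4 effects, in which 0.124% of all genes were called. limma called 0 of the 5 chemokines: the adjusted p was 0.255 for Ccl24, 0.533 for Cxcl16, 0.574 for Ccl17, 0.69 for Ccl5 and 0.835 for Ccl22. The unadjusted p was under 0.05 for 2 of them, Ccl24 at 0.00222 and Cxcl16 at 0.0388, and for 9.1% of all genes. A p that misses the threshold does not show that the effects are alike.

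In WT cells the levels of each gene were set in order over populations. Ccl17 averaged 13.4 ± 0.04 in BMDC (SD here and below, n = 3 for BMDC and 2 for each organ population), 12.35 ± 0.1 in lung CD11b+, 12.26 ± 0.16 in lung CD103+ and 10.98 ± 0.25 in liver cells, and only the lung neighbours overlapped. Ccl22 averaged 10.38 ± 0.13 in lung CD103+, 10.18 ± 0.35 in lung CD11b+, 9.93 ± 0.21 in BMDC and 8.5 ± 0.57 in liver cells, and only the step to liver was free of overlap. Ccl5 averaged 11.08 ± 0.93 in lung CD103+, 10.56 ± 0.46 in lung CD11b+, 10.46 ± 0.75 in liver and 9.34 ± 0.22 in BMDC, and only BMDC stood apart. Cxcl16 averaged 11.32 ± 0.13 in CD11b+ and 11.3 ± 0.13 in CD103+ cells of lung, 10.27 ± 0.28 in liver and 9.78 ± 0.13 in BMDC, with overlap between the lung populations. Ccl24 averaged 7.77 ± 0.07 in liver, 7.32 ± 0.36 in CD11b+ and 5.7 ± 0.16 in CD103+ cells of lung, and 5.64 ± 0.21 in BMDC, with overlap between the last pair.

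Some of these WT steps passed the test. BMDC and liver differed for 3 of 5 members, against 17.2% of all genes called in either direction. Ccl17 was higher in BMDC (2.42 ± 0.65, adjusted p = 0.0216), Ccl5 lower (-1.12 ± 0.36, adjusted p = 0.0448) and Ccl24 lower (-2.13 ± 0.27, adjusted p = 0.000237). BMDC and lung CD11b+ cells differed for 3 of 5, against 8.14% of all genes: Cxcl16 (-1.54 ± 0.34, adjusted p = 0.00987), Ccl24 (-1.68 ± 0.27, adjusted p = 0.00101) and Ccl5 (-1.22 ± 0.36, adjusted p = 0.049) were lower in BMDC. With the lung arrays of 1 genotype and number as a random block, that of Ccl5 did not pass (adjusted p = 0.0552). BMDC were also lower than lung CD103+ cells in Ccl5 (-1.73 ± 0.36, adjusted p = 0.00456) and Cxcl16 (-1.53 ± 0.34, adjusted p = 0.0075), where 10.9% of all genes were called.

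Ccl24 was higher in liver than in lung CD103+ cells (2.07 ± 0.29, adjusted p = 0.000507, with 9.35% of all genes called) and higher in lung CD11b+ than in lung CD103+ cells (1.62 ± 0.29, adjusted p = 0.00449, with 3.75% called). Between liver and lung CD11b+ cells limma called 0 of 5 (2.08% of all genes), with an unadjusted p under 0.05 for 2 (24.7% of all genes), and Ccl22 passed in no pair. Several of these calls rest on few arrays. Ccl17 between BMDC and liver was lost without WT BMDC replicate 1, 2 or 3 or WT liver replicate 3. Ccl5 between BMDC and liver was lost without any WT BMDC array or WT liver replicate 1, and between BMDC and lung CD11b+ cells without any of the 5 arrays. Ccl5 and Cxcl16 between BMDC and lung CD103+ cells were lost without WT lung CD103+ replicate 1. Cxcl16 between BMDC and lung CD11b+ cells was lost without either WT lung CD11b+ array, and Ccl24 between the lung populations without WT lung CD11b+ replicate 3 or WT lung CD103+ replicate 3. BMDC differ from the organ cells in source, culture and mouse age, which cannot be told apart.

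Receptors of these chemokines were also measured. Of the listed receptors 5 were tested, and limma called 0 in any genotype comparison. At an unadjusted p under 0.05 there was 1 in each population and 2 in the mean effect, in which 9.37% of all genes had such a p. Ccr4, the receptor of Ccl17 and Ccl22, read 5.11 to 6.02 on all arrays and did not pass the filter, and Cxcr6, the receptor of Cxcl16, averaged 5.38 to 5.95 over the groups. Ccr1, a receptor of Ccl5 on myeloid cells, averaged 9.46 ± 0.3 on WT and 9.72 ± 0.41 on BRAF arrays in BMDC, 8.05 ± 0.19 and 8.88 ± 1.52 in liver, and 8.64 ± 0.14 and 9.54 ± 0.19 in lung CD11b+ cells. It was lowest in WT lung CD103+ cells, at 5.95 ± 1.13, against 8.46 ± 0.3 on BRAF arrays (2.51 ± 0.56, adjusted p = 0.145). The macrophage markers of these arrays are given above, and their part was not tested. Of the 4 proteases that process the members limma called 0, with an unadjusted p under 0.05 for 1 in lung CD11b+ cells and 0 in the other comparisons, and Adam10, which sheds Cxcl16, stood at 0.25 ± 0.13 and Adam17 at 0.1 ± 0.15 in the mean effect.

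Among 11 tested regulators linked to Ccl17 and Ccl22, limma called 0 in any single population (unadjusted p under 0.05 for 5 in BMDC and in lung CD11b+ cells and for 1 in liver and in lung CD103+ cells), and 2 were lower in the mean effect, in which 0.501% of all genes were. These were the NF-kB subunit genes Rel (-0.6 ± 0.12, adjusted p = 0.0239) and Relb (-0.54 ± 0.12, adjusted p = 0.0386). Rel also read lower on every BRAF array than on any WT array in all 4 populations. The median of the 11 was -0.44 in the mean effect, beside -0.01 for all genes. Irf4, a transcription factor of CD11b+ dendritic cells, stood at -0.81 ± 0.26 (adjusted p = 0.203), and the IL-4 pathway genes Stat6 and Il4ra at -0.18 ± 0.19 and 0.15 ± 0.15.

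Of 14 other tested chemokines that draw T cells or eosinophils, limma called 0 in the 5 genotype comparisons. At an unadjusted p under 0.05 there were 3 in BMDC, 4 in each organ population and 6 in the mean effect. Of all genes, 6.65% had such a p in BMDC, 14.1% in liver and 9.37% in the mean effect. In lung it was 6.71% (CD11b+) and 4.26% (CD103+). The 14 went both ways: 5 were negative and 9 positive in the mean effect, with a median of 0.09 beside -0.01 for all genes. Their median was 0.19 in BMDC and -0.29 in liver. Cxcl9, a CXCR3 ligand induced by interferon, stood at 2.66 ± 0.63 (adjusted p = 0.193) in lung CD103+ cells and at -1.69 ± 0.63 (adjusted p = 0.279) in liver. Cxcl13, a B cell chemokine, stood at 4.44 ± 1.43 in liver (adjusted p = 0.221). Cx3cl1, which lies between Ccl22 and Ccl17 on chromosome 8, stood at -1.05 ± 0.28 in lung CD11b+ cells (adjusted p = 0.179) and at -0.21 ± 0.23 in BMDC, 0.02 ± 0.28 in liver and -0.18 ± 0.28 in lung CD103+ cells.

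Of 19 tested genes of mature dendritic cells, these chemokines left out, 5 were lower in the mean effect, beside 0.501% of all genes. Ccr7 stood at -2.07 ± 0.16 (adjusted p = 8.79e-06), the actin-bundling protein gene Fscn1 at -1.72 ± 0.17 (adjusted p = 0.000133), and Apol7c, Icosl and Cd83 at -1.87 ± 0.26, -0.91 ± 0.17 and -0.93 ± 0.19. The median of the 19 was -0.55. Of 11 IL-4 response genes, 1 was called lower in liver, beside 0.0716% of all genes: Retnla (-3.99 ± 0.67, adjusted p = 0.0292). Ccl24 was also lower there, but of the 11 genes 5 were negative and 6 positive in liver. Their median in liver was 0.1, beside 0.08 for all genes. Arg1 was higher in BMDC (4.73 ± 0.21, adjusted p = 1.16e-08) and lung CD11b+ cells (2.37 ± 0.26, adjusted p = 0.00141). In these comparisons 0.521% and 0.338% of all genes were called in either direction. The median of the 11 in the mean effect was 0.02, beside -0.01 for all genes. The 5 members and the lists were chosen with earlier results of these data known and give no independent support.

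**Figure D4:**
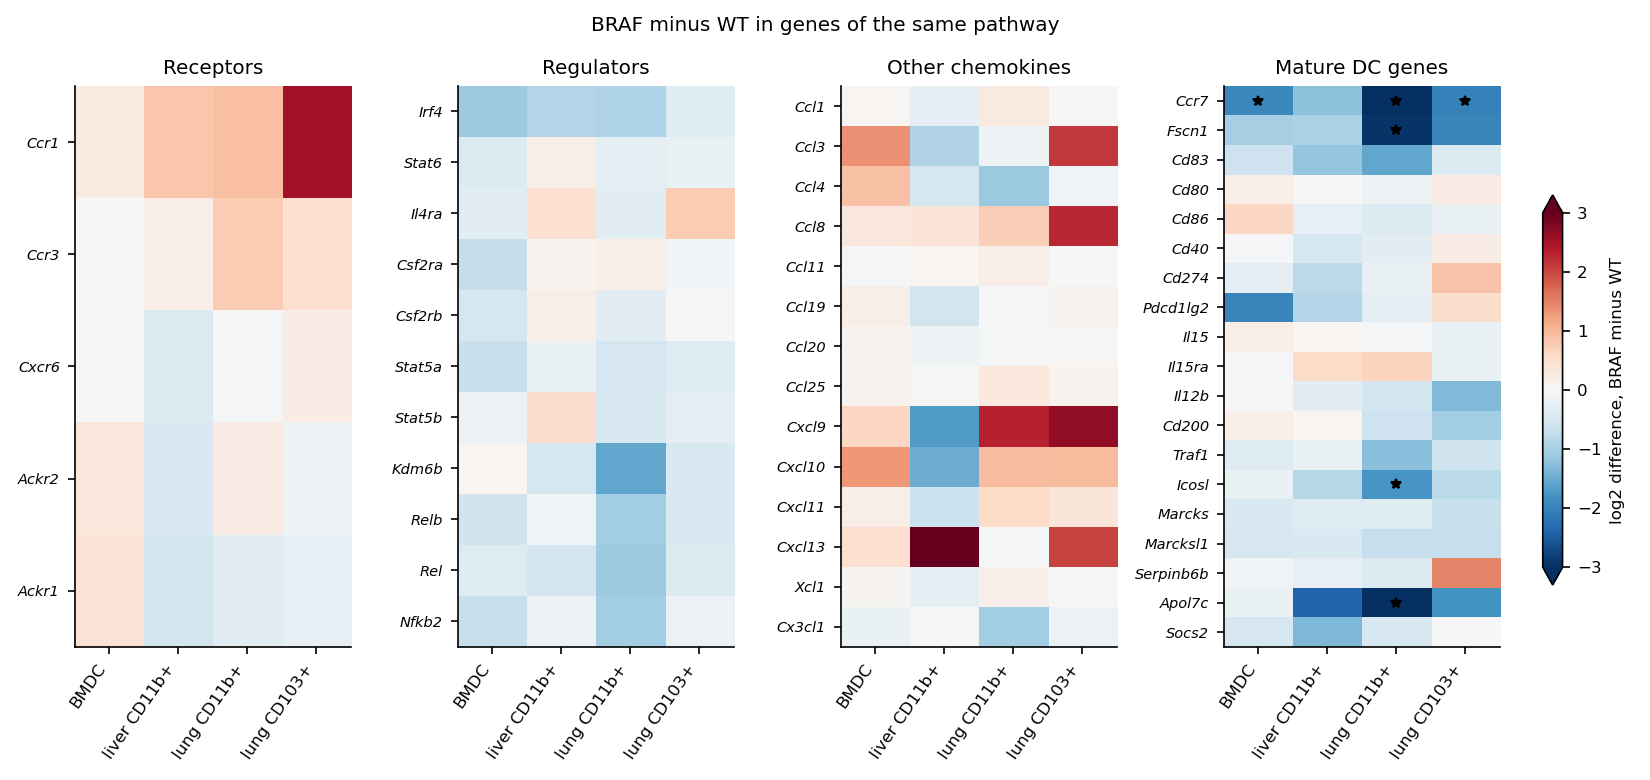
Log2 difference BRAF minus WT (colour) of the tested receptors, regulators, other chemokines and mature dendritic cell (DC) genes (y axis) in the 4 populations (x axis); a star marks an adjusted p under 0.05, and differences beyond 3 take the end colour. The stars are Ccr7 in BMDC and in both lung populations, and Fscn1, Icosl and Apol7c in lung CD11b+ cells.

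The genes most like each chemokine across the 18 arrays were found by Pearson's r. Here r also carries the differences between populations and between genotypes. Ccl22 was most like Ccr7 (r = 0.897), then Ptms and Trerf1. Both Ccl22 and Ccr7 had every BRAF array below every WT array in all 4 populations, so their r is not separate from the genotype differences. Ccl17 was most like Dennd3 (r = 0.909), then Il12rb2, a chain of the IL-12 receptor, and F2rl2. Cxcl16 was most like Ids (r = 0.951), Plbd1 and Bcl6, a transcriptional repressor. Ccl5 was most like Dnaja1 (r = 0.866), a co-chaperone, and Ccl24 most like Tbx6 (r = 0.914) and Clec4g, a lectin of liver sinusoids.

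Among the members, Ccl17 and Ccl22 had r = 0.758, which placed Ccl22 at rank 42 of 15364 other genes for Ccl17. Ccl5 and Cxcl16 had r = 0.723 and Ccl5 and Ccl22 r = 0.679. Ccl17 and Cxcl16 had r = 0.064, and Ccl24 had r from -0.256 to 0.445 with the others.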

How the data were processed

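The arrays hold 1-colour signal for 24922 probe sets. The deposited values are intensity on a linear scale, and the sources used here do not give how the authors normalized them. RNA was isolated with Trizol and biotin labelled, per the labels' protocols. The log2 of the deposited intensity was taken with no added constant and no further normalization. The number of arrays limits the precision. Probe sets with 1 symbol (21425) were kept; 1399 with several and 2098 not listed were left out. For the 921 genes with more than 1 probe set, that of highest mean was used. Genes above the 30th percentile of an array, on 2 or more arrays, were tested.

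limma 3.58.1 in R 4.3.3 fitted a mean per group over 18 arrays (10 residual degrees of freedom, prior 4.8), so all groups share 1 estimate of the spread. Contrasts were BRAF minus WT per population and in the mean, their differences, and pairs of WT populations. Alternatives were other normalizations, filters and eBayes settings, array weights, smaller fits, replicate blocks and leaving arrays out.

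Members and lists were chosen with earlier results of these data known. Genes named from the lists were those called and a fixed set of receptors, proteases, regulators and chemokines. Cxcl9, Cxcl13, Alb, Cd5l and Adgre1 were chosen after their values were seen. Same-numbered lung arrays of a genotype deviated from their group means together weakly, with r = 0.159 (WT) and r = 0.22 (BRAF) across genes. Within a genotype each number gives the same r, because the deviations of a group's arrays mirror each other. These values are weak ground for a pairing, and the labels do not give it. The main fit treated the lung arrays as unpaired. Their number entered as a random block in an alternative fit only.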

Additional observations from a re-analysis of the deposited data

How the results depend on the processing

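Of 485 alternative values of the members' genotype differences, 443 kept their side of the threshold, 14 lost a call, 28 gained a call and 0 called values turned sign; 9 that were not called did. Of 465 values for WT pairs, 430 kept their side, 27 lost a call and 8 gained a call. The cause of these changes was not tested. With quantile normalization Ccl17 (-3.6) and Ccl5 (-1.96) passed in liver, Ccl5 (-2.19) in lung CD103+ cells and Ccl24 (-0.69) in the mean, and genes called went from 33 to 59 in liver and from 152 to 270 in the mean. Averaging a gene's probe sets left 18 in liver, and eBayes with trend called Ccl24 in the mean (-0.59). With array weights (0.11 to 6.03) Ccl17 (-0.89), Ccl22 (-1.98) and Ccl5 (-0.97) passed in BMDC, the same genes in lung CD11b+ cells (-2.36, -2.58 and -1.86) and Ccl24 in the mean (-0.6), while Ccl24 in liver did not (-1.68); genes called were 1658 against 80 in BMDC, 1 in liver and 369 against 52 in lung CD11b+ cells. Fits of only the groups compared called Ccl22 in BMDC (-2.43), Ccl17 in liver (-3.54) and Ccl5 in lung CD11b+ cells (-1.86), and lost Cxcl16 in BMDC (-1.83) and Ccl24 in liver (-1.68), with 44, 7 and 0 genes called in BMDC, liver and lung CD103+ cells. Same-numbered BMDC arrays did not pair (r = 0.469, -0.231 and -0.399); with the number as a fixed replicate block Ccl22 passed (-2.43), Cxcl16 did not (-1.83) and 14 genes were called. The lung number as a random block (correlation 0.126) changed no genotype call of a member and, among the WT pairs, that of Ccl5 between BMDC and lung CD11b+ cells. Without the 2 arrays of narrowest spread Ccl24 in liver (-1.73) did not pass, Ccl5 passed in lung CD11b+ (-1.86) and lung CD103+ cells (-2.18) and Ccl24 in the mean (-0.64), with 149, 21 and 324 genes called in lung CD11b+ cells, lung CD103+ cells and the mean. Chosen after seeing the data, leaving out both BRAF lung arrays numbered 1 gave -0.78 for Cxcl16 (lost) and -0.72 for Ccl24 (gained) in the mean, with 31, 8 and 73 genes called in the same order; leaving out those numbered 2 gave -3.58 for Ccl17 and -3.29 for Ccl22 in lung CD11b+ cells, with 131, 113 and 293.

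Leaving out 1 array at a time gave these ranges where a call changed: Cxcl16 in BMDC -2.06 to -1.5, Ccl17 in liver -3.77 to -3.3, Ccl24 in liver -1.92 to -1.45, Ccl17 in lung CD11b+ cells -3.58 to -1.14, Ccl5 in lung CD103+ cells -2.84 to -1.52, and in the mean Cxcl16 -1.1 to -0.8 and Ccl24 -0.7 to -0.48. Genes called ranged from 20 to 103 in BMDC, 15 to 358 in liver, 7 to 97 in lung CD11b+ cells, 3 to 96 in lung CD103+ cells and 67 to 280 in the mean. Where this left a lone array in a group, it was assumed to vary like the other groups. Another probe set per member was not tried, since each has 1; the mean and the F test have no fit of only 2 groups. Signal near the filter level limits Ccl24 in BMDC and lung CD103+ cells.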
